A study of Vitis vinifera with 2 samples.

Results

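DAP-seq reports where a transcription factor binds naked genomic DNA in a test tube. Here HALO-tagged grapevine MYB24, made in rabbit reticulocyte lysate, was offered fragmented, adapter-ligated DNA from young leaves of the cultivar Cabernet Sauvignon, clone 08, and the series has 1 such library beside 1 library made in the same kind of lysate with the tag alone (pIXHALO). Both libraries are labelled with the same DNA source, and they differ in the protein on the beads. The authors deposited 2 lists of GEM binding events for the MYB24 library. In the primary-only list all 6663 events lie on primary contigs of the Cabernet Sauvignon assembly, and in the diploid list 4042 lie on primary contigs and 2060 on haplotigs. The events described here are those that appear on primary contigs in the diploid list alone: there are 1114 of them among the 12765 events of both lists, and each has no primary-only event on the same contig within 100 bp. They are called unmatched events below, and the other 2928 diploid events on primary contigs are called matched.

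MYB24 belongs to the R2R3-MYB family, whose members bind short DNA elements through their MYB repeats and are known in plants for the control of phenylpropanoid and flavonol genes. In Arabidopsis the gene of the same name acts in stamens under jasmonate. Grapevine cultivars are highly heterozygous, and a phased assembly therefore stores one version of a locus on a primary contig and, where the other version differs enough, that version on a haplotig. A read from such a locus can be aligned to either sequence when both are offered, and only to the primary contig when haplotigs are left out. GEM calls an event at a point by fitting the read pattern around it and compares its reads with those of the control.

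Each event carries the authors' strength, −log10 p and −log10 q, and these are values of single events in 1 library, so no replicate error exists for any of them. The events were chosen by their positions in both lists and split by their strength, so values from the same lists are given as a description, with no test. Shares have 95% Wilson intervals, which take each event as independent and cover counting error alone. The smallest strength in the primary-only list was 23, against 13 for diploid events on primary contigs, and the split is at 23.

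Of the 4042 diploid events on primary contigs, 27.6% were unmatched, and 808 of the 1114 unmatched events (72.5%, 69.8 to 75.1%) had a strength under 23. The other 306 had a strength of 23 or more, and this number depends on the matching distance: it was 626 with matching within 20 bp. Over all diploid events on primary contigs 70.9% reached 23, so the unmatched events were weaker, in part by construction, because the primary-only list holds nothing under 23. Among the diploid events under 23 the unmatched share was 68.7%, and among those at or above it 10.7%. A primary-only event near a weak diploid event can still be stronger, and 368 diploid events under 23 were matched in that way. The smallest −log10 p was 2.17 in the primary-only list and 2.39 for diploid events on primary contigs. Every diploid event on a primary contig, matched or unmatched, therefore lay above 2.17, which does not set the unmatched ones apart.

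The unmatched share fell with strength, most steeply at 23, and went on falling above it. It was 69.2% (63.9 to 74.0%) for strengths from 13 to under 17, 70.6% (66.2 to 74.7%) from 17 to under 20 and 66.4% (61.7 to 70.7%) from 20 to under 23. Above the limit it was 31.4% (27.3 to 35.8%) from 23 to under 26, 16.0% (12.9 to 19.7%) from 26 to under 30 and 6.49% (5.19 to 8.10%) from 30 to under 50. Of the 613 events from 50 to under 100 only 15 were unmatched, and of the 242 events of 100 or more only 5 were.

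The events beside the limit differed little in strength. Just inside, Primary000088F at 806500, Primary000003F at 5693019, Primary000014F at 514325, Primary000125F at 1535088 and Primary000156F at 857876 all had a strength of 23, with a −log10 q of 5.97 for the first and 4.23 for each of the others. They are 5 of 51 unmatched events at exactly 23, taken in order of −log10 q and then of contig, and over the 51 it ran from 2.04 to 5.97 with a median of 3.17. Just outside, Primary000286F at 108231, Primary000275F at 147661, Primary000023F at 3904608 and Primary000028F at 2291215 had 22.9, and Primary000025F at 3665689 and Primary000080F at 724448 had 22.8, with −log10 q values between 2.15 and 5.16. In all, 105 unmatched events lay from 22 to under 23 and 74 from 23 to under 24.

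The 306 stronger unmatched events were mostly close to the limit, with a median strength of 26 and quartiles of 24 and 31, and 214 of them (69.9%) stayed under 30. Only 20 reached 50, and these 20 lay on 9 contigs, with 7 of them on Primary000106F.

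The strongest by far lay on Primary000022F at 582997 (582898 to 583098), where strength was 447.5 and −log10 q was 46.5. The nearest other diploid event on the contig was 130137 bp away, and the nearest primary-only event, 8098 bp away at 591095, had a strength of 53.5. Its ratio of −log10 p to strength was 0.109, below the lower quartile of the matched events of 23 or more (0.126). For the 237 matched events with a strength of 100 or more the median ratio was 0.230.

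The next by strength were on Primary000106F at 1500781 (159.6), on Primary000000F at 2444839 (139.5), and on Primary000106F at 1500263 (125.4) and 1547173 (123.0). On Primary000260F, the events at 479263, 479913 and 480069 had strengths of 52.0, 79.5 and 94.5. These 3 lay within 806 bp of each other, their −log10 q values were 7.51, 20.8 and 18.8, and the nearest primary-only event was 24839 bp or more away. The next diploid event, at 504907, was matched at 1 bp, with a strength of 65.8 in the diploid list against 88.0 in the primary-only list. Unlike the other contigs of this group, Primary000260F had no haplotig event of its number.

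A high strength did not always come with a low q. Of the 20 strongest unmatched events 14 reached a −log10 q of 5, while 4 stayed under 3. Further members of the 20 included Primary000009F at 1667761 (61.4), 210 bp from a primary-only event of 149.7, and Primary000082F at 316804 and Primary000000F at 2187834 (52.0 each). On Primary000000F at 3096568 the strength was 92.0 and the −log10 q 2.71, and on Primary000106F at 1503662 they were 59.0 and 2.25. Primary000047F at 222398 had 57.0 and 2.45. These 3 had the lowest ratios of −log10 p to strength among the stronger unmatched events, at 0.0355, 0.0459 and 0.0519, followed by 0.0593 on Primary000001F at 5148702 and 0.0602 on Primary000000F at 3094557. The highest ratios were 0.301 on Primary000008F at 1365660 and on Primary000088F at 806500, with strengths of 25 and 23. They were followed by 0.283 on Primary000260F at 479913, 0.279 on Primary000009F at 1667761 and 0.278 on Primary000000F at 2444839.

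Significance was low for the unmatched events as a group. A −log10 q of at least 5 was reached by 34.0% of all diploid events on primary contigs, but by 30 of the 1114 unmatched ones (2.69%, 1.89 to 3.82%). At strengths of 23 or more the share over all such events was 47.8%, and 29 of the 306 unmatched events reached it (9.48%, 6.68 to 13.3%), 8 of them on Primary000106F. With matching within 20 bp the share among unmatched events was 14.8%, and within 500 bp 1.6%. Within classes of like strength the order varied. From 30 to under 50 the median −log10 q was 3.085 for 72 unmatched events and 4.77 for 1037 matched ones, and from 26 to under 30 it was 2.965 against 3.54. From 23 to under 26 the order was the other way, 2.97 against 2.79.

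The ratio of −log10 p to strength had a median of 0.132 for the stronger unmatched events and of 0.166 for the matched events of 23 or more, which had a higher median strength of 38.4. In classes of like strength the unmatched events had the higher ratio from 23 to under 26, 0.149 against 0.136, and at 100 or more, 0.235 against 0.230 with only 5 unmatched events. They had the lower one in the classes between, as from 30 to under 50, with 0.112 against 0.151. Under 0.1 were 42 of the 306 (13.7%, 10.3 to 18.03%), against 10.4% of all diploid events on primary contigs at these strengths. Among weak events the medians were 0.163 for the unmatched and 0.170 for the matched. At one and the same strength the ranges of −log10 p overlapped and the order of the medians varied. At 22 the median was 2.73 for 80 unmatched and 3.57 for 42 matched events, at 20 it was 3.6 for 37 and 3.61 for 19, and at 23 it was 3.81 for 51 and 3.295 for 58.

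**Figure D1:**
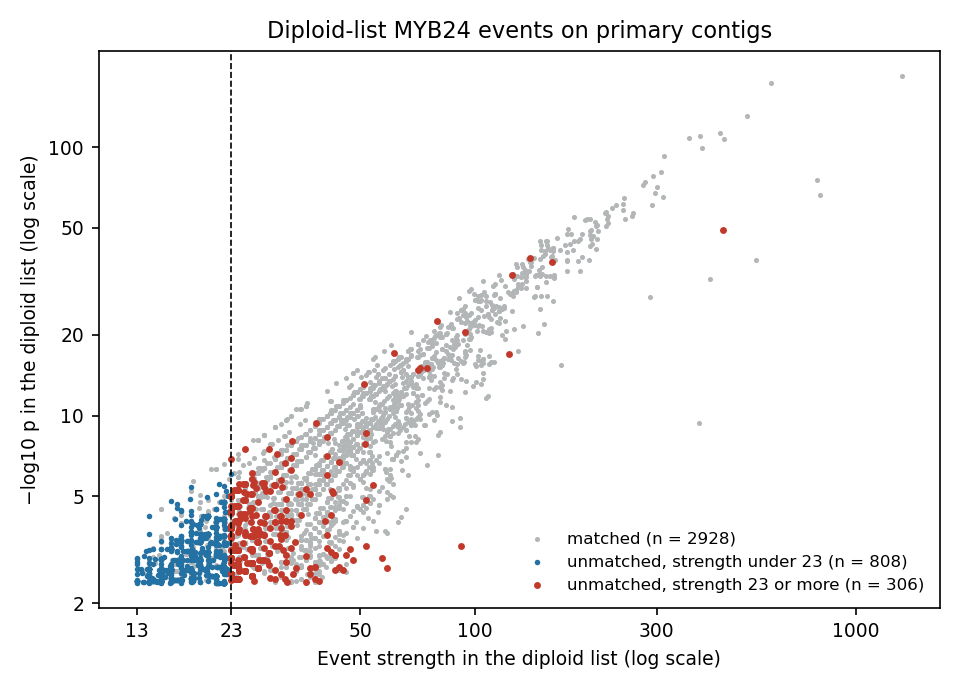
Strength (horizontal, log scale) against −log10 p (vertical, log scale) of every diploid-list event on a primary contig, as 1 point per event. The dashed line is the smallest primary-only strength, 23. The 306 unmatched events to its right lie mostly under a strength of 30 and among the matched events, with the event of 447.5 far to the right.

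The weak unmatched events were close in strength to the matched events under 23. Their median was 18.05 with quartiles of 16.6 and 21, against 19 with 16.8 and 21. For all diploid events on primary contigs under 23, of which the unmatched were 68.7%, it was 18.5 with 16.6 and 21. A −log10 q under 2.5 was held by 499 of the 808 (61.8%, 58.4 to 65.0%), against 57.8% of all events under 23 and 49.2% (44.1 to 54.3%) of the matched ones among them. Only 1 reached a −log10 q of 5, against 0.425% of all diploid events on primary contigs at these strengths. This was Primary000286F at 108231, with 5.16. The next by −log10 q were Primary000038F at 3175240 (4.71), Primary000070F at 779732 (4.63), Primary000581F at 56946 (4.59) and Primary000131F at 558758 (4.41).

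The 2 strength groups of unmatched events differed in how often their contigs had haplotig events. Over all diploid events on primary contigs, 74.5% were on a contig for which haplotigs of the same number hold at least 1 event. For the stronger unmatched events the share was 85.0% (80.5 to 88.5%), and for the matched events of the same strengths 74.3% (72.5 to 75.9%). For the weak unmatched events it was only 64.6% (61.2 to 67.8%), and for the weak matched events 89.7% (86.1 to 92.4%). The order of unmatched and matched events was thus opposite on the 2 sides of a strength of 23. The sides are not alike in what a match requires. The primary-only list holds nothing under 23, so a diploid event under 23 can be matched only by a stronger primary-only event.

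Read the other way, haplotig events went with fewer unmatched events below 23 and with more above it. Below 23, 88.3% (84.3 to 91.3%) of the 324 events on contigs without haplotig events were unmatched, and 61.3% (58.0 to 64.5%) of the 852 on contigs with them. At 23 and above it was 6.52% (4.93 to 8.59%) of 705 and 12.0% (10.7 to 13.5%) of 2161. The widest gap above the limit was from 23 to under 26, with 19.0% (13.4 to 26.3%) of 142 against 37.1% (31.9 to 42.6%) of 310. From 30 up the intervals overlapped. Contigs with haplotig events differ from the others in more than that. Contigs numbered under 100 held 78.6% of the diploid events on contigs with haplotig events and 5.64% of those on contigs without them, and the last primary-only event lay at a median of 2.73 Mb on those contigs and of 0.205 Mb on contigs numbered 200 or more. The parts of contig size and of the primary-only limit of 23 in the haplotig shares were not tested. Whether a haplotig covers the place of a given event is not known here.

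**Figure D2:**
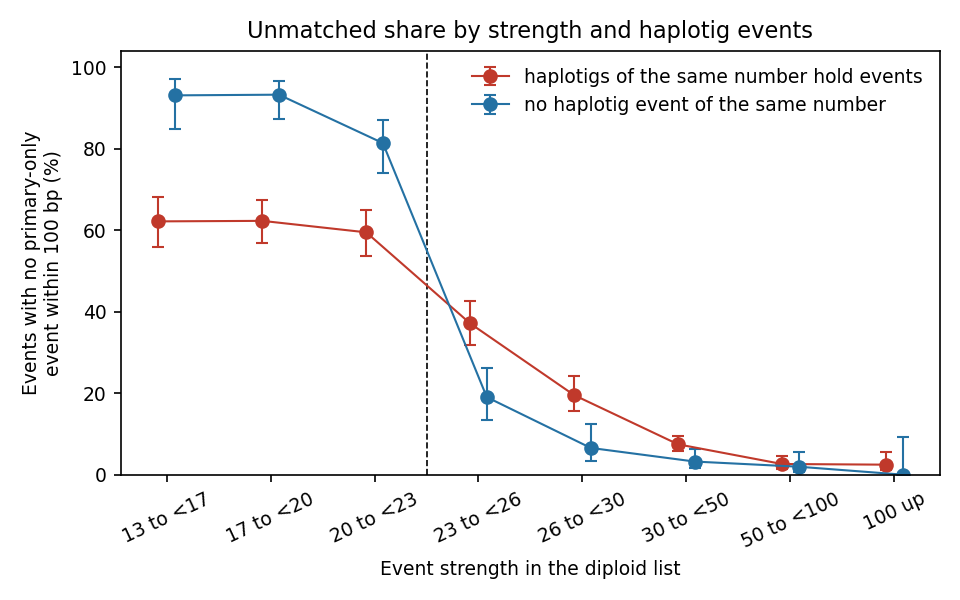
Share of diploid-list events on primary contigs that were unmatched (vertical, percent) in 8 classes of strength (horizontal), for contigs with and without events on haplotigs of the same number; bars are 95% Wilson intervals and the dashed line marks a strength of 23. The curve for contigs without haplotig events lies higher below the line and lower from 23 to under 30; from 30 up the bars overlap.

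The unmatched events differed in how far they lay from the primary-only list. The median distance to the nearest primary-only event was 18616 bp for the stronger and 35954 bp for the weak ones. Within 1 kb lay 145 of the 1114 (13.02%). These were 74 of the 306 stronger events (24.2%, 19.7 to 29.3%) and 71 of the 808 weak ones (8.79%, 7.02 to 10.9%). Over 50 kb lay 77 (25.2%) and 303 (37.5%). The 13.02% became 35.4% with matching within 20 bp and 3.1% within 500 bp. That change follows from the rule, since a wider matching distance takes the nearest events out of the unmatched ones. The farthest of the stronger events were Primary000112F at 430822, 1259266 bp from the nearest primary-only event, and Primary000098F at 1892359, 511758 bp away, with strengths of 32.9 and 23. They were followed by Primary000164F at 1030969, Primary000003F at 8802859 and Primary000022F at 4381960, with strengths of 24.8, 26 and 25.9 and distances from 336928 to 457057 bp.

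A further 40 unmatched events lay on 29 contigs where the primary-only list has no event at all. None of these 29 contigs had an event on a haplotig of its number, and 21 of them held a single unmatched event. The most were on Primary000229F, with 4. Over all 427 primary contigs of the diploid list, 91 held a single diploid event. Contigs numbered under 100 held only 5.64% of all diploid events on contigs without haplotig events. Over all 4042 diploid events on primary contigs, 1029 lay on contigs without haplotig events. The share of the 427 contigs without them was not counted, so their absence on the 29 has no base among contigs. The 29 contigs were not compared with others of like number or size. Only 2 of the 40 reached a strength of 23, on Primary000212F at 688733 (26.6) and on Primary000378F at 46370 (23), with −log10 q values of 3 and 2.43.

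**Figure D3:**
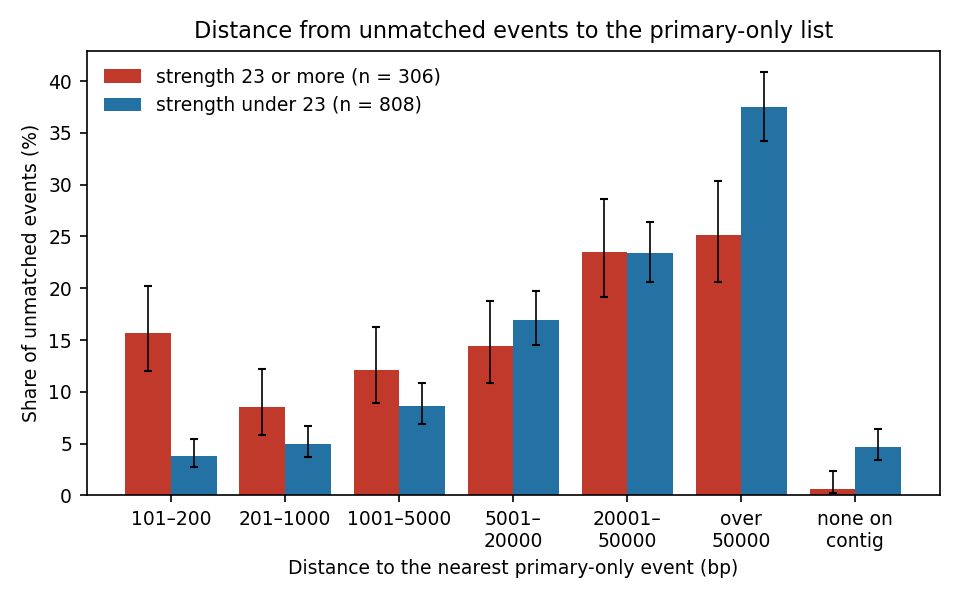
Share of the stronger (n = 306) and the weak (n = 808) unmatched events (vertical, percent) by distance to the nearest primary-only event on the same contig (horizontal, bp); bars are shares and whiskers 95% Wilson intervals. The stronger events are most in excess at 101 to 200 bp, with 15.7% against 3.84%, and the weak events at over 50 kb.

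Some unmatched events lay just beyond the 100 bp of the rule. The deposited intervals reach 100 bp to either side of an event, so an event up to 200 bp from a primary-only event overlaps its interval, and 79 unmatched events did so, 48 stronger and 31 weak. These are not absent from the primary-only list in the sense of an empty stretch. Of these 79, 61 lay within 150 bp. Primary000026F at 3321368, 101 bp from a primary-only event, and Primary000001F at 3932646, Primary000033F at 1838118 and Primary000095F at 384429, each 102 bp from one, were the closest of the stronger events, followed by Primary000034F at 829447 and Primary000106F at 1543293 with 103 bp each.

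For 46 of the 79 the overlapped primary-only event had no diploid event within 100 bp. These 46 stood beside 45 primary-only events, since Primary000033F at 1838118 and at 1838325 lay on either side of the same one. In 12 of the 46, this pair included, the strengths in the lists were within 10% of each other. On Primary000026F, 51.5 in the diploid list at 3321368 stood beside 51.8 in the primary-only list at 3321267, and on Primary000047F 57.0 at 222398 stood beside 56.0 at 222503. On Primary000026F at 558535 it was 54.0 beside 50.8 at 558355. In 18 of the 46 the diploid strength was under 0.5 of the primary-only strength, as on Primary000067F at 2109013, with 42.5 beside 218.0 at 2108905. The median ratio of diploid to primary-only strength was 0.582, with quartiles of 0.335 and 0.955.

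For the other 33 the primary-only event also had a matched diploid event, so that 1 primary-only event stood beside both a matched and an unmatched diploid event. On Primary000000F, the primary-only strength at 2444949 was 344.9, beside diploid strengths of 207.4 at 2444950 and, for the unmatched event 110 bp away at 2444839, of 139.5. Their sum was 1.01 times the primary-only strength. On Primary000099F, 209.8 at 1958788 stood beside 54.0 at 1958787 and the unmatched 51.2 at 1958669, a sum of 0.501 times. Over the 33 the median of this sum was 1.097 times the primary-only strength, with quartiles of 0.923 and 1.52, and in 28 the unmatched event was weaker than its matched neighbour (summed where there were several). No source used here says whether strength has the same scale in both lists.

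**Figure D4:**
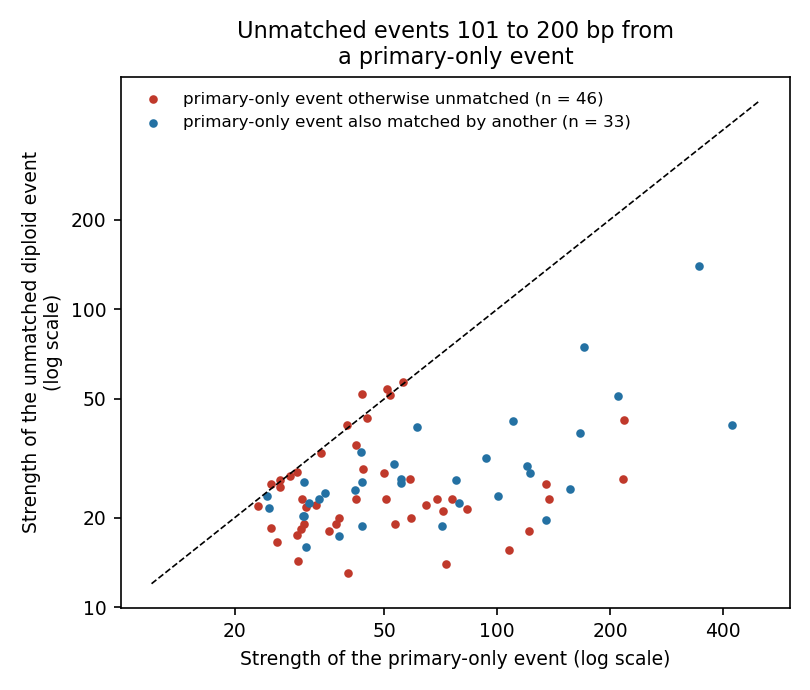
Strength of the 79 unmatched events that lie 101 to 200 bp from a primary-only event (vertical, log scale) against the strength of that primary-only event (horizontal, log scale), 1 point per unmatched event. The dashed line marks equal strengths; 12 of the 46 events whose primary-only neighbour has no diploid event within 100 bp lie within 10% of it, and the rest mostly lie below it.

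Close diploid neighbours were also more frequent around the stronger unmatched events. Another diploid event lay within 1 kb for 72 of the 306 (23.5%, 19.1 to 28.6%) and for 73 of the 808 weak ones (9.03%, 7.25 to 11.2%), against 15.4% of all diploid events on primary contigs and 17.5% of those with a strength of 23 or more. The share depends on the matching rule. For 23 of the 306 the overlapped primary-only event also had a matched diploid event, so a close diploid neighbour followed from the rule. Over all unmatched events the share was 13.02%, and 9.95% with matching where intervals share 1 bp. For 43 of the 72 the nearest diploid event was matched, for 29 it was unmatched itself, and for 50 it was the stronger one. One diploid event can be the nearest to several. Over all diploid events on primary contigs 27.6% were unmatched. The median strength was 26 for the 306, against 29 for all diploid events on primary contigs and 36.2 for those of 23 or more. A neighbour would therefore often be stronger.

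Runs of at least 3 unmatched events, each up to 5 kb from the next, numbered 11, on 9 contigs, with 39 events in all, 31 of them stronger ones. They made up 3.5% of the unmatched events, and runs of matched events by the same rule, 39 in number, held 6.15% of the matched ones. Matched events are more numerous and so meet a fixed link of 5 kb more easily, and these shares do not compare clustering. In 5 of the 11 runs the primary-only list had no event between the first and the last. One was the group on Primary000260F. On Primary000000F, the run from 3094557 to 3096568 had strengths of 48.0, 42.0 and 92.0 with −log10 q values of only 2.39, 3.54 and 2.71. Primary000286F had 24.1, 23 and 34.6 from 157150 to 159009, Primary000049F had 23.8, 16.4, 16.5 and 24.7 from 435893 to 438832, and Primary000292F had 17, 14 and 13.4 from 134152 to 140915. The remaining runs had primary-only events among them. They were on Primary000033F from 1835408 to 1838325 and from 3121447 to 3129429, on Primary000076F from 890809 to 895612, on Primary000098F from 207322 to 211723, and a pair on Primary000106F.

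The run with the most events was on Primary000106F from 1500263 to 1505266, inside a stretch that is dense in both lists. Its 7 events had strengths of 125.4, 159.6, 71.0, 72.0, 59.0, 74.9 and 40.9, and 6 of them had −log10 q values from 7.28 to 35.3. In these 5003 bp the diploid list had 8 events and the primary-only list 3, at 1504100, 1504484 and 1504822, with strengths of 80.3, 170.5 and 143.1. The primary-only events of 39.9 at 1498533, 89.1 at 1498708 and 50.3 at 1499330 lay before the run and had no diploid event within 100 bp. The stretch opened with a primary-only event of 242.3 at 1497536, and its first diploid event was at 1497978. Over the whole stretch of 36 primary-only and 39 diploid events, 11 diploid events were unmatched, with a median strength of 71.0, above the 48.55 of the 28 matched ones. Where sites lie this close, distance alone does not say which events of the lists belong to the same site. The second run there, at 1540601, 1543293 and 1547173, had strengths of 21.1, 25.9 and 123.0.

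**Figure D5:**
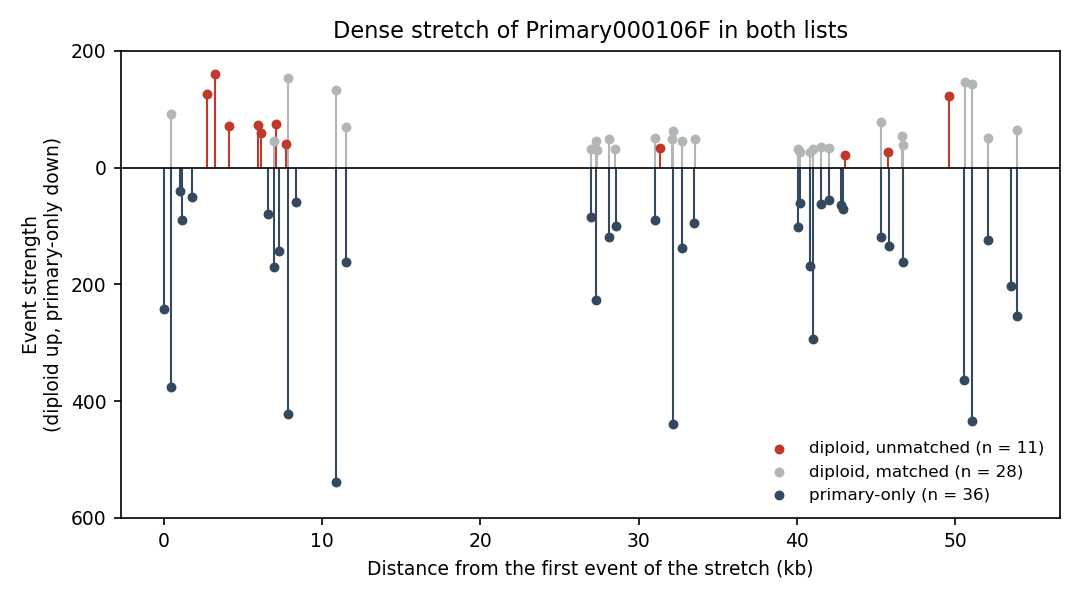
Events of the dense stretch of Primary000106F, with distance from its first event in kb (horizontal) and strength (vertical), diploid events drawn upward and primary-only events downward. The 7 unmatched events of the first run stand where the primary-only list has a gap and then 3 events at other positions.

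Unmatched events were spread over 317 of the 427 primary contigs in the diploid list, and 113 contigs held just 1. The most were on Primary000000F and Primary000008F, with 19 each, then Primary000002F with 18, Primary000007F with 17, and Primary000005F and Primary000038F with 15 each. Of all diploid events on these 6 contigs the unmatched were 17.1%, 35.8%, 19.4%, 27.9%, 21.4% and 40.5%, in that order, so 3 of the 6 were below the 27.6% over all contigs. Over the 134 contigs with at least 10 diploid events the unmatched share had a median of 27.5% and ran from 3.85% to 66.7%, and it was over 50% on 9 of them, with the highest value on Primary000103F, where 8 of 12 were unmatched. None of these 134 was without an unmatched event.

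The stronger unmatched events had another order. Primary000000F led with 15, followed by Primary000022F and Primary000026F with 11 each, Primary000106F with 10 and Primary000005F with 8. On Primary000022F and Primary000026F no unmatched event was under 23. The matched events there were not under 23 either, with smallest strengths of 24 and 28.5. Strength and significance did not rise together between Primary000026F and Primary000008F, which is not among the leading contigs. The 11 events on Primary000026F had strengths from 30.9 to 54.0 and a median −log10 q of only 2.5. The 7 on Primary000008F had a median strength of 25 and a median −log10 q of 4.46. Median ratios of −log10 p to strength were 0.0831 on Primary000026F, 0.0855 on Primary000005F, 0.0873 on Primary000000F, 0.186 on Primary000008F and 0.206 on Primary000106F. Matched events of 23 or more on Primary000026F, Primary000005F and Primary000000F had medians of 0.127, 0.128 and 0.144, so the unmatched events lay below them. On Primary000008F and Primary000106F the matched medians were 0.166 and 0.202, so the unmatched events lay above them. Strength was not held alike in these comparisons. On Primary000026F its median was 38 for the unmatched and 60.7 for the matched events. Among the 16 contigs with at least 5 stronger unmatched events, the unmatched median was below the matched one on 10.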

How the data were processed

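DNA bound by MYB24 in 1 DAP-seq library was analysed from 2 event lists; the library made with the tag alone enters only through the comparison that the series' design text states. Per the submitters' processing notes, Bowtie2 2.3.2 served for alignment and Trim Galore 0.6.6 with cutadapt 3.1 for trimming. The deposited lists name GEM as the event caller; no source used here gives its version, its settings or the handling of reads with several positions. The signal per event (called strength), its −log10 p and its −log10 q were deposited by the authors. What strength counts is not stated, so the depth behind an event is unknown. The smallest −log10 q was 2 in both lists. Contigs carry the names of Cabernet Sauvignon clone 08, version 1.1, and no sequence or gene model of that build was used.

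Positions are those in the event names; interval starts and ends are 1-based. Diploid events were unmatched when no primary-only event on the contig lay within 100 bp. Haplotigs were tied to contigs by the number in their names. Named events are the 20 strongest, those nearest to the limit of 23 (ties by −log10 q, then contig), the extremes in −log10 q (weak events), in the ratio of −log10 p to strength and in distance, and the runs; loci beside them and the examples of overlapping pairs were chosen after their values were seen. The members and lists were chosen with earlier results of these data known. No test was made, because the lists share 1 library. The steps were tested on simulated data. Tools were Python 3.11.15 with pandas 2.3.3, numpy 2.4.6, matplotlib 3.10.9 and scipy 1.17.1.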

Additional observations from a re-analysis of the deposited data

How the results depend on the processing

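Leaving out Primary000106F was chosen after seeing the data. It left 1103 unmatched events, 296 of them at 23 or more, and moved no result by more than its interval or, for counts, by 1.5 times; taking the middle of the interval as position changed nothing.

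Matching within 20 bp gave 626 stronger events, shares of 37.1% unmatched, 41.7% at 23 or more, 14.8% with −log10 q of at least 5, 35.4% with a primary-only event within 1 kb and 15.6% with a diploid neighbour, a median strength of 21.9 and 0.159 −log10 p per strength. Within 500 bp these shares were 24.7%, 24.7%, 1.6%, 3.1% and 7.3%, with 7 runs. With intervals sharing at least 1 bp they were 25.6%, 24.9%, 1.84%, 6.38% and 9.95%. In these 3 settings the change in the share with a primary-only event within 1 kb follows from the matching rule itself. When both lists were limited to −log10 q values of 5 or more, 97 events (7.05%) were unmatched, 95 of them (97.9%) at 23 or more, with a median strength of 33.1 and 0.207 −log10 p per strength; 17.5% had a primary-only event and 18.6% a diploid event within 1 kb, 81.4% were on contigs with haplotig events, and there were 2 runs. Fewer events enter there, and the share on contigs with haplotig events was not computed for all events so limited.

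A limit at the 5th percentile of primary-only strength, 26, gave 164 stronger events (14.7%) and 0.124 −log10 p per strength. Within 5 kb, 22.6% had a primary-only event and 23.3% a diploid neighbour, the latter against 24.8% of all diploid events on primary contigs. At least 3 haplotig events were present for 64.9%, against 69.8% of all diploid events on primary contigs. A link of 1 kb gave 4 runs. The remaining 37 of 73 values stayed within their intervals or 1.5 times. No paired analysis was possible because there is a single library per group, which also leaves no replicate to omit. Without read depth, absence from the primary-only list cannot be given a detection limit.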
